A study of Mus musculus with 6 samples.

Results

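Telomerase and the proteins that sit on telomeres were examined through 10 genes, taken from a list of names, out of 21485 genes that all 6 count matrices shared. Tert, Dkc1 and Wrap53 encode protein parts of telomerase, Terf1, Terf2, Pot1a, Tinf2, Acd and Terf2ip encode the shelterin complex, and Rtel1 encodes a helicase of telomere replication. The samples were cultures of mouse muscle-derived stem/progenitor cells (MDSPCs), slowly adhering cells enriched from digested skeletal muscle by passing the cells that had not yet attached on to new collagen-coated flasks. Young mice gave 3 of the populations and old mice the other 3, all kept in the same proliferation medium with fetal bovine serum, horse serum and chick embryo extract, and read out with 10x Genomics 3′ single-cell RNA libraries. A population is named by its group and replicate number. The labels call the populations biological replicates and give no age, sex, strain, genotype or passage number, so a comparison of the groups rests on 3 cultures against 3 of unstated culture history. The question of the series was how MDSPCs differ with the age of the donor.

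Telomerase adds telomeric repeats to chromosome ends. Tert is its catalytic reverse transcriptase, Dkc1 (dyskerin) binds and stabilises the telomerase RNA, and Wrap53 (TCAB1) directs that RNA to Cajal bodies and telomeres. Shelterin covers the repeats and keeps chromosome ends from being read as breaks: Terf1 and Terf2 bind double-stranded repeats, Pot1a binds the single-stranded overhang, Acd (TPP1) joins Pot1a to the complex and recruits telomerase, Tinf2 (TIN2) links these parts, and Terf2ip (RAP1) binds Terf2. Rtel1 unwinds the loop and other structures at telomeres so that the replication fork can pass.

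The kept cells numbered 61673 of 62849 deposited barcodes, with 133683424 to 196258384 unique molecular identifiers (UMIs, tags that count each captured RNA molecule once) per sample and a median of 13001 to 19951 UMIs per cell. Levels are given as scaled CPM, the UMIs of a gene per 1000000 UMIs of the sample after TMM scaling, and they describe the captured 3′ ends of whole genes, so different genes are not ranked against each other. All 12 myogenic marker genes examined exceeded 1 scaled CPM in some sample and summed to 356 to 4042 per sample, although Pax7 was at 0.02 in young replicate 3 and Myf5 at 0.01 in young replicate 1. The summed markers of endothelial cells (1.47 to 8.70), of blood cells (1.48 to 9.76) and of Schwann cells (0.84 to 2.58) were low in every sample. The 8 fibro-adipogenic markers summed to 186 to 436, mostly from Gsn (135 to 303) and Col3a1 (12.8 to 132). Of these 8, 5 exceeded 1 scaled CPM in some sample, and Lum had at most 1 UMI in a sample. Smooth muscle and pericyte markers summed to 3.96 to 71.9. Between 24 and 41 barcodes were shared by any pair of libraries. The part of marker levels in the results below was not tested. The share of cells scored as cycling, that is in S or G2/M, was 42.9%, 52.6% and 82.4% in young populations and 75.1%, 30.6% and 59.3% in the old, listed here and throughout by replicate number from 1 to 3.

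Tert RNA was rare, and its level differed more between populations of one age than between the ages. Tert (ENSMUSG00000021611) lies on chromosome 13 from 73626911 to 73649843, on the plus strand of GRCm38. The 3 young populations had 0.01, 0.17 and 1.38 scaled CPM of Tert, and the old ones 0.36, 0.81 and 0.67 scaled CPM. Young replicate 3 was highest and young replicate 1 lowest, so all 3 old samples fell between young ones. Behind the young levels stood 1, 33 and 282 UMIs, and behind the old ones 61, 150 and 115. The level of young replicate 3 was 156 times that of young replicate 1, with an exact 95% counting interval of 27.8 to 6189 that leaves out the spread between cultures. The old over young log2 fold change was 1.13 (SE 1.44, 95% interval -2.46 to 4.71; edgeR quasi-likelihood test, unadjusted p = 0.466, adjusted p = 1.00). The size of this estimate depended on the term for the gene list: without it the value was 0.23, and the old mean was 1.18 times the young mean. The estimate turned to -0.07 when young replicate 1 or old replicate 1, the 2 samples counted on the shorter list, was left out, and likewise in the 4 samples on the longer list. A lone sample of the shorter list is taken up by the list term. These fits thus rest on the same 4 samples and are not separate checks. The estimate reached 3.04 when young replicate 3 was left out. The median of the genes on chromosome 13 stood 0.33 (log2) above the 6-sample mean in old replicate 2, the old sample with the most Tert, and its part was not tested.

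Tert UMIs were spread thinly over cells. Of 60305 cells with at least 5000 UMIs, 622 held a Tert UMI, 15 held 2 of them and none held more. With each cell thinned to 5000 UMIs, Tert was found in 0%, 0.094% and 0.771% of the cells of young cultures and in 0.212%, 0.494% and 0.288% of those of old cultures. The 0 of 8444 cells in young replicate 1 allows a share of up to 0.0355%, taken as 3 cells of the total, and the two-sided exact 95% interval reaches 0.0437%. These limits are for cells with a Tert UMI at this depth, not for cells that express Tert. Without thinning the shares were 0.0115%, 0.287% and 2.55%, and 0.591%, 1.67% and 0.909%. The order of the samples was the same at both depths, with young replicate 3 and old replicate 2 on top. Free RNA in the droplets was not estimated, and no cell type that should lack these genes was present as a measure of it.

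**Figure D1:**
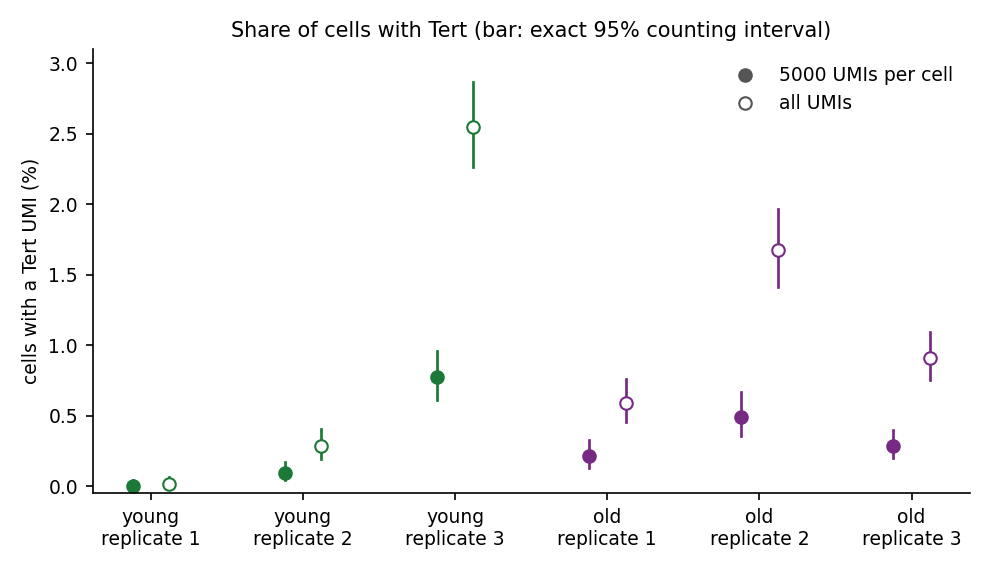
Share of cells with at least 1 Tert UMI (%) in each population, in cells thinned to 5000 UMIs (filled) and with all UMIs (open). Bars are exact 95% counting intervals; the share ran from 0% in young replicate 1 to 0.771% in young replicate 3 at 5000 UMIs.

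The genes whose levels were closest to Tert in pattern over the 6 samples were Chst10, Pgbd1 and 4930486L24Rik. Likeness was the root-mean-square difference of log2 CPM (prior count 2), each gene centred on its own mean, and was 0.55, 0.63 and 0.63 for these genes, against a spread of Tert itself of 2.00. Chst10 was at 0.009, 0.171 and 1.56 scaled CPM in the young and 0.471, 2.33 and 0.65 scaled CPM in the old samples. All 3 genes were also lowest in young replicate 1, at 0.071 scaled CPM or less, which follows from choosing them for likeness to Tert.

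Promoter sequence from RefSeq (GRCm38.p6, 250 bases before the annotated start) was matched for 9 of the 10 genes, and is shown for Tert, Dkc1, Terf2 and Rtel1, whose windows overlap no annotated exon and which stand for telomerase, shelterin and the helicase. Capitals mark a GC box (GGGCGG, or CCGCCC on the other strand), a CHR-type element (TTTGAA, or TTCAAA on the other strand) or a CCAAT box (CCAAT, either strand). CACGTG and TTTNGCGC, an E-box and an E2F-type motif, were also searched on both strands, and no motif of the 5 contains another.
Tert, chr13:73626661-73626910, plus strand: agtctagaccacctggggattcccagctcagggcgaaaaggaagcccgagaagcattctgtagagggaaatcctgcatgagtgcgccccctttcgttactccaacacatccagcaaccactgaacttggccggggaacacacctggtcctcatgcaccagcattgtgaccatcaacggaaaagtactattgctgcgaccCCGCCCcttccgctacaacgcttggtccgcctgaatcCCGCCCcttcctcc
Dkc1, chrX:75095604-75095853, plus strand: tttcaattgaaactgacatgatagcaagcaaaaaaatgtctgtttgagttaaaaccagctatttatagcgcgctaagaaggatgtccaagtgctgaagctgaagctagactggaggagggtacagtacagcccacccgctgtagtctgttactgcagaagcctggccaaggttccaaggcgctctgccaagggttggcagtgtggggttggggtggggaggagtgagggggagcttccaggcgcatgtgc
Terf2, chr8:107096549-107096798, minus strand: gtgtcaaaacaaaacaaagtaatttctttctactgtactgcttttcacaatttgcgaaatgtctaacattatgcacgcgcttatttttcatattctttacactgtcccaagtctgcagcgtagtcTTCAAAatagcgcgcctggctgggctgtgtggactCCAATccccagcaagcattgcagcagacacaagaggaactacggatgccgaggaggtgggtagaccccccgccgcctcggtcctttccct
Rtel1, chr2:181319474-181319723, plus strand: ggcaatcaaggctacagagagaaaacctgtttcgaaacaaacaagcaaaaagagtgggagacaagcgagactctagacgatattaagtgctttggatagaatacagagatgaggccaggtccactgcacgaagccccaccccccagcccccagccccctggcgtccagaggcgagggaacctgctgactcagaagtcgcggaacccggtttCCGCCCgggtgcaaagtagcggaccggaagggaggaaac
The Tert window held 2 GC boxes, the Rtel1 window 1 GC box, the Terf2 window 1 CHR-type element and 1 CCAAT box, and the Dkc1 window none of the 5 motifs. Over all 32851 mouse promoter windows of this length, 32.7% held a GC box, 16.0% the CHR-type element, 33.8% a CCAAT box, 6.02% the E-box and 1.13% the E2F-type motif. The matches describe the sequence only.

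Dkc1, the dyskerin gene, was well measured and stood highest in 1 old population. Dkc1 (ENSMUSG00000031403; chromosome X, 75095854 to 75109777, plus strand) had levels of 67.6, 57.3 and 67.0 scaled CPM in young cultures against 114.9, 48.5 and 43.4 in old ones. Old replicate 1 lay above all young samples and old replicates 2 and 3 lay below all of them, so the groups overlapped and the old spread (SD 39.9, n = 3) was wider than the young (SD 5.80, n = 3). The log2 fold change was -0.04 (SE 0.31, 95% interval -0.81 to 0.72; edgeR unadjusted p = 0.899). It was 0.11 without the gene list term and between -0.44 and 0.22 over all alternatives. The sample with the highest Dkc1 level was also the one with Y-chromosome RNA: Uty, Kdm5d and Eif2s3y summed to 3861 UMIs there and to at most 3 elsewhere. Chromosome X as a whole stood 0.76 (log2) above the 6-sample mean in old replicate 2, by the median of its genes, and at -0.19 to -0.07 in the other samples. The part of these differences in the Dkc1 level was not tested. Med16, Gtf3c5 and Mgat5 were the genes closest to Dkc1 in pattern, at root-mean-square differences of 0.0892, 0.0909 and 0.103 against a Dkc1 spread of 0.451.

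Wrap53 (ENSMUSG00000041346; chromosome 11, 69561758 to 69580255, minus strand) had levels of 10.4, 7.42 and 10.1 scaled CPM in young cultures against 12.7, 9.53 and 11.1 in old ones. The group ranges overlapped by old replicate 2 alone, which lay below young replicates 1 and 3. The log2 fold change of Wrap53 was 0.25 (SE 0.25, 95% interval -0.37 to 0.87; edgeR unadjusted p = 0.354), positive in all alternatives from 0.11 to 0.47. The lowest of these was the value minus the median fold change of chromosome 11. The genes of that chromosome stood 0.35 (log2) above their 6-sample mean in old replicate 2, and the part of this shift was not tested. Wrap53 neighbours the p53 gene Trp53 on the opposite strand, and Trp53 itself was at 140 to 161 scaled CPM in all samples.

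Terf1 and Terf2, the double-strand repeat binders, varied 2.48-fold and 2.07-fold over the 6 populations. Terf1 (ENSMUSG00000025925; chromosome 1, 15805646 to 15844052, plus strand) was at 20.3, 30.4 and 42.2 scaled CPM in the young and 29.6, 17.0 and 32.7 scaled CPM in the old samples. Terf2 (ENSMUSG00000031921; chromosome 8, 107069400 to 107096547, minus strand) was at 16.6, 14.2 and 22.1 scaled CPM in the young and 20.1, 10.7 and 11.6 scaled CPM in the old samples. Young replicate 3 was highest and old replicate 2 lowest for both genes. The log2 fold changes were -0.19 (SE 0.38, 95% interval -1.14 to 0.77) for Terf1 and -0.38 (SE 0.32, 95% interval -1.17 to 0.42) for Terf2. Young replicate 3 also had the largest and old replicate 2 the smallest share of cycling cells. Within non-cycling cells alone the same samples were highest and lowest, at 20.8 and 8.07 scaled CPM for Terf1 and 18.6 and 10.1 scaled CPM for Terf2. For Terf2 other samples lay close to these, old replicate 1 at 18.2 and old replicate 3 at 10.4 scaled CPM. The part of the share of cycling cells in the levels of both genes was not tested.

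Pot1a was highest in a single young culture. Pot1a (ENSMUSG00000029676; chromosome 6, 25743737 to 25809246, minus strand) was at 6.25, 9.26 and 17.8 scaled CPM in the young and 6.72, 8.43 and 9.87 scaled CPM in the old samples. The median of all genes on chromosome 6 was also raised in young replicate 3, by 0.33 (log2) over the 6-sample mean. The log2 fold change of Pot1a was -0.34 (SE 0.35, 95% interval -1.22 to 0.53) and 0.03 without young replicate 3. Mice carry a close paralog of this gene, Pot1b, which was at 6.20, 7.19 and 8.34 scaled CPM in the young and 3.79, 4.60 and 8.96 scaled CPM in the old samples. Reads shared by the paralogs could be lost or split in counting.

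The linking subunits showed no common order of the samples. Tinf2 (ENSMUSG00000007589; chromosome 14, 55674689 to 55681820, minus strand) was at 9.84, 6.08 and 8.57 scaled CPM in the young and 14.4, 4.67 and 7.6 scaled CPM in the old samples, with old replicate 1 on top as for Dkc1. Acd (ENSMUSG00000038000; chromosome 8, 105695860 to 105701102, minus strand) was at 36.0, 25.9 and 34.6 scaled CPM in the young and 25, 26.2 and 32.1 scaled CPM in the old samples, and its highest level was 1.44 times its lowest. Terf2ip (ENSMUSG00000033430; chromosome 8, 112011398 to 112020528, plus strand) was at 10.4, 15.8 and 12.0 scaled CPM in the young and 9.82, 14.4 and 12.7 scaled CPM in the old samples, a 1.61-fold range. By the ratio of highest to lowest level, Acd and Terf2ip thus differed least between cultures of the 10 genes, and Tert, at 156-fold, the most. By the coefficient of variation (SD over mean), Wrap53 at 17.1% lay between Acd at 16.2% and Terf2ip at 18.3%. The log2 fold changes were 0.01 (SE 0.35, 95% interval -0.87 to 0.89) for Tinf2, -0.21 (SE 0.24, 95% interval -0.80 to 0.38) for Acd and -0.05 (SE 0.23, 95% interval -0.62 to 0.53) for Terf2ip. Tinf2 overlaps Gmpr2 by 4512 bases on the opposite strand, Acd overlaps Carmil2 by 2328 and Terf2ip overlaps Gm6793 by 1604, and whether the counting used strand is not given in the sources used here.

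The helicase gene Rtel1 (ENSMUSG00000038685; chromosome 2, 181319739 to 181356616, plus strand) had levels of 7.84, 8.62 and 9.49 scaled CPM in young cultures against 12.7, 4.75 and 6.51 in old ones. The old samples enclosed the young ones on both sides. The log2 fold change of Rtel1 was -0.23 (SE 0.39, 95% interval -1.19 to 0.73; edgeR unadjusted p = 0.570).

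**Figure D2:**
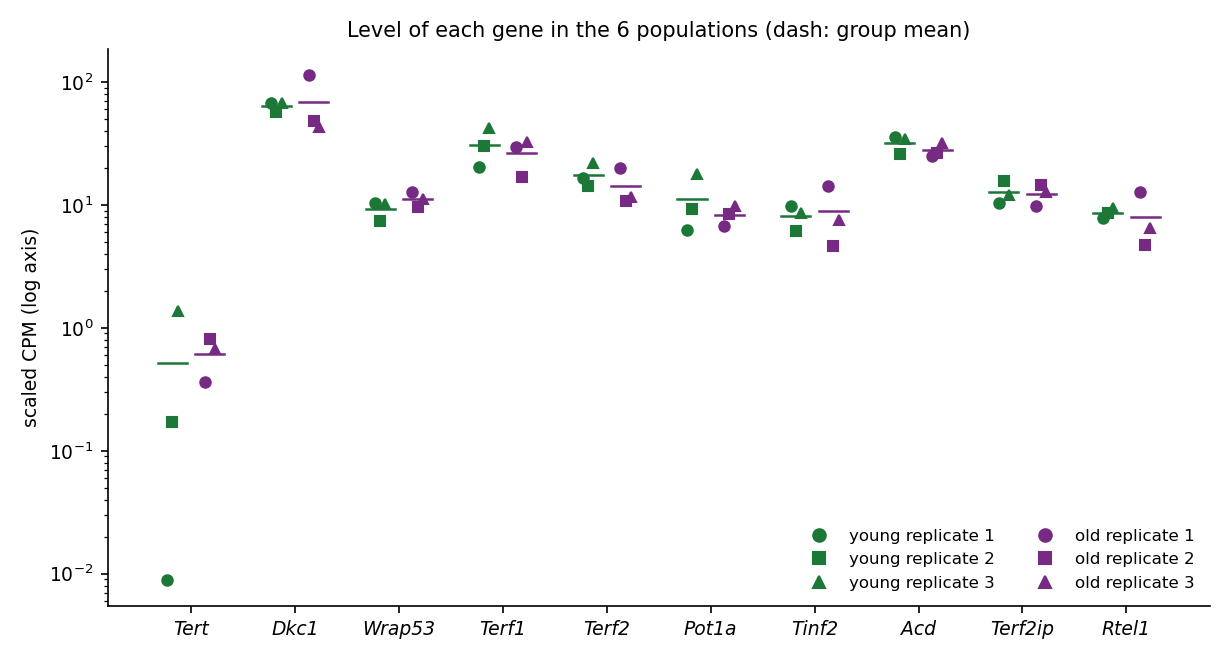
Scaled CPM (log axis) of the 10 genes in each population, young in green and old in purple, with a symbol per replicate and a dash at each group mean. Young and old points overlap for every gene, and Tert spans 0.01 to 1.38 scaled CPM.

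None of the 10 genes differed between old and young populations in edgeR's quasi-likelihood test, at an adjusted p of 1.00 for each. None of the 10 had an unadjusted edgeR p under 0.05, as 512 of the 14512 genes tested did, and DESeq2 called 0 of them and 219 of all genes. With edgeR, 1 of all 14512 genes was called (0.00689%), so the count of 0 is near the background. The groups overlapped in scaled CPM for all 10, while 878 of all genes tested (6.05%) had no overlap. The median log2 fold change was -0.12 over the 10 genes and -0.01 over all genes. The intervals show what the design could not resolve: they reach from a fall of 1.14 to a rise of 0.77 (log2) for Terf1, and the biological coefficient of variation between samples was 0.563. In edgeR fits restricted to non-cycling, S or G2/M cells, 0 of the 10 genes were called as well, with Tert too sparse to be tested in S cells. This 0 is not read as a result about the 10 genes, since edgeR called 1 of all 14512 genes in the full fit.

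**Figure D3:**
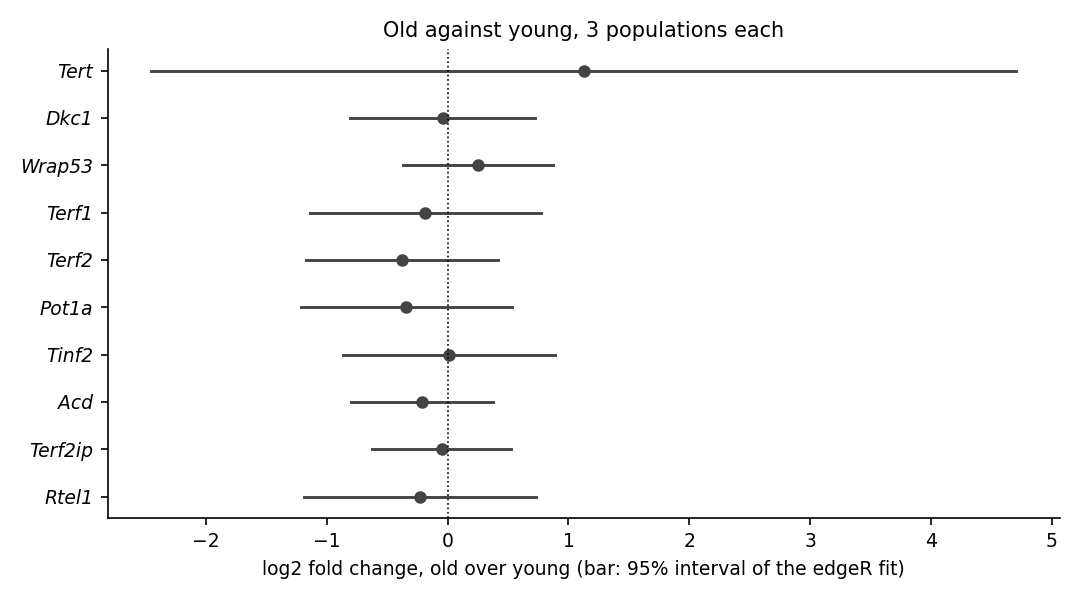
Log2 fold change, old over young, of each gene with its 95% interval from the edgeR fit over 3 young and 3 old populations. Every interval spans 0, and that of Tert, -2.46 to 4.71, is the widest.

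The share of cells with a UMI gave the same picture. In cells thinned to 5000 UMIs, Dkc1 was found in 24.3%, 22.5% and 28.9% of the cells of young cultures and in 44.5%, 20.9% and 18.2% of those of old cultures. Terf1 was found in 8.18%, 12.0% and 19.1%, and in 14.0%, 7.43% and 13%. The highest sample was again old replicate 1 for Dkc1 and young replicate 3 for Terf1. The Dkc1 share averaged 25.2% ± 3.30 in young and 27.9% ± 14.5 in old cultures (SD, n = 3 each), with a two-sided p of 1.0 by the exact permutation test. The 10 exact permutation p-values lay between 0.2 (Wrap53, 4.12% ± 0.934 against 5.49% ± 1.06, n = 3 each) and 1.0, where 3 samples against 3 cannot go below 0.1. The shares overlapped between the groups for all 10 genes, against 839 genes without overlap (5.78%) among all tested.

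Within every population, most of these genes were higher in cycling than in non-cycling cells. Cells were scored for S and G2/M with published gene sets that hold none of the 10 genes, each class was summed per sample, and the classes were compared with the sample as a block. Against non-cycling cells, 8 of the 10 genes rose in S cells and 2 fell. Of all genes tested in this comparison 55.5% were called, 24.1% higher and 31.4% lower. In G2/M cells 7 of the 10 rose and none fell, where 52.4% of all genes were called, 22.9% higher and 29.6% lower. The median log2 fold change was 0.70 over the 10 genes in S cells and 0.55 over them in G2/M cells, and -0.05 over all genes in both. The classes are ranges cut from a score. In 9.94% of cells the higher of the S and G2/M scores lay within 0.05 of 0, the limit of the non-cycling class. In 17.3% of cells these scores lay within 0.05 of each other, or both within 0.05 of 0.

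Terf1 showed the steepest course through the cycle. In non-cycling cells it was at 10.4, 12.4 and 20.8 scaled CPM in the young and 13.3, 8.07 and 13.1 scaled CPM in the old samples. In S cells it was at 23.7, 28.4 and 34.8, and at 24.4, 20.3 and 28.8 scaled CPM. In G2/M cells it reached 40.6, 43.8 and 54.0, and 43.7, 34.9 and 52.5 scaled CPM. Every population thus stepped up from non-cycling to S and again to G2/M, and the G2/M values did not overlap the non-cycling ones. The log2 fold change was 1.07 in S (SE 0.08, edgeR adjusted p = 2.91e-09) and 1.83 in G2/M (SE 0.08, edgeR adjusted p = 6.96e-13), or 3.57-fold. G2/M cells exceeded S cells by 0.76 (SE 0.07, edgeR adjusted p = 1.02e-06), a comparison chosen after seeing the data. In it 2 of the 10 genes rose and 3 fell, where 19.2% of all genes were called, 9.07% higher and 10.1% lower. The spread of Terf1 between populations was 2.58-fold in non-cycling cells and 1.55-fold in G2/M cells.

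Tinf2, Rtel1, Wrap53 and Dkc1 rose in S and stayed high in G2/M. Tinf2 went from 4.81, 3.09 and 4.16 scaled CPM in non-cycling cells of the young samples to 13.8, 9.83 and 9.34 scaled CPM in S cells. The old cultures had 8.09, 2.36 and 4.50 and then 18.1, 10.3 and 10.8 scaled CPM. Its log2 fold change was 1.45 in S (SE 0.12, edgeR adjusted p = 8.23e-09), the largest of the 10 genes in that class, and 1.28 in G2/M (SE 0.11). Rtel1 rose by 1.14 in S (SE 0.12) and 1.28 in G2/M (SE 0.11), with levels of 2.93 to 5.49 scaled CPM in non-cycling and 7.34 to 13.8 scaled CPM in S cells. Its lowest S value lay above its highest non-cycling value.

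The telomerase genes Dkc1 and Wrap53 rose together by cell class. Dkc1 was at 52.4, 32.9 and 37.5 scaled CPM in non-cycling cells of the young samples and at 90.9, 74.3 and 76.3 scaled CPM in their S cells. For old cultures the Dkc1 levels were 89.1, 35.9 and 32.6 scaled CPM in non-cycling and at 135, 76.0 and 53.4 scaled CPM in S cells. Old replicate 1 held the highest Dkc1 level in all 3 classes, and the part of class shares in its level was not tested. The log2 fold change of Dkc1 was 0.89 in S (SE 0.07, edgeR adjusted p = 3.09e-09) and 0.77 in G2/M (SE 0.06, edgeR adjusted p = 1.70e-08). Wrap53 rose by 1.03 in S (SE 0.09) and by 0.74 in G2/M (SE 0.09), and fell by 0.29 from S to G2/M (SE 0.09, edgeR adjusted p = 0.0263), a call lost without young replicates 1 or 2 or old replicates 1 or 3.

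The shelterin genes Pot1a, Terf2 and Acd also rose in S cells. Pot1a rose by 0.52 in S (SE 0.08) and 0.26 in G2/M (SE 0.08) and was at -0.26 in G2/M against S (edgeR adjusted p = 0.0288), a call lost without the same samples as for Wrap53 and, at 0.0501, without the filter on low counts. Terf2 rose by 0.23 in S (SE 0.07) and 0.36 in G2/M (SE 0.06). Acd rose by 0.43 in S (SE 0.06, edgeR adjusted p = 2.05e-05) but was at 0.11 in G2/M (SE 0.06, 95% interval -0.02 to 0.24, edgeR adjusted p = 0.151, or 0.0294 with unthinned counts), and it was lower in G2/M than in S (-0.31, SE 0.06, edgeR adjusted p = 0.00221). Each of these 3 S-phase rises was seen in 6 of 6 populations.

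Terf2ip, the RAP1 gene, went the other way. It was at 12.7, 17.0 and 14.0 scaled CPM in non-cycling cells of the young samples and at 9.01, 14.4 and 9.45 scaled CPM in their S cells. Old cultures had levels of 12.0, 14.0 and 13.9 scaled CPM in non-cycling and 9.44, 10.8 and 11.1 scaled CPM in S cells. The level was lower in S in 6 of 6 populations, with a log2 fold change of -0.39 (SE 0.07, edgeR adjusted p = 0.000139). In G2/M it was at -0.12 against non-cycling cells (SE 0.06, 95% interval -0.26 to 0.01, edgeR adjusted p = 0.116) and higher than in S by 0.26 (SE 0.07, edgeR adjusted p = 0.0137, or 0.116 without young replicate 3). With unthinned counts the G2/M value of Terf2ip was -0.16 and passed the threshold (edgeR adjusted p = 0.00307). The non-cycling class also held cells with 2 or more UMIs of Myog, the myogenin gene. They numbered from 32 of 2470 in old replicate 1 to 2397 of 4951 in old replicate 3. Terf2ip was higher in such cells, as given below, and their part in the S-phase fall was not tested.

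The Tert estimates lay below 0 in both cycling classes. Its S-phase log2 fold change was -0.81 (SE 0.33, edgeR adjusted p = 0.0487), from 36 UMIs in 13602 S cells and 84 UMIs in 25058 non-cycling cells, and young replicate 1 had none in either. The populations were split, with ratios of 0.51 and -1.59 (log2) in young replicates 2 and 3 and of -1.33, -0.28 and 0.24 in the old samples. The fall was lost with DESeq2 (adjusted p = 0.232), without the filter on low counts (edgeR adjusted p = 0.0729), and without young replicate 3 (-0.30, edgeR adjusted p = 0.560), old replicate 1 (-0.73, adjusted p = 0.122) or old replicate 2 (-0.88, adjusted p = 0.0683). It was also lost without the cells whose S and G2/M scores lay within 0.05 of each other or both within 0.05 of 0. Over all alternatives the adjusted p ran from 0.00946 to 0.835. In G2/M cells, with 74 UMIs in 21645 cells, Tert was at -0.39 (SE 0.28, 95% interval -1.0 to 0.21, edgeR adjusted p = 0.261).

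**Figure D4:**
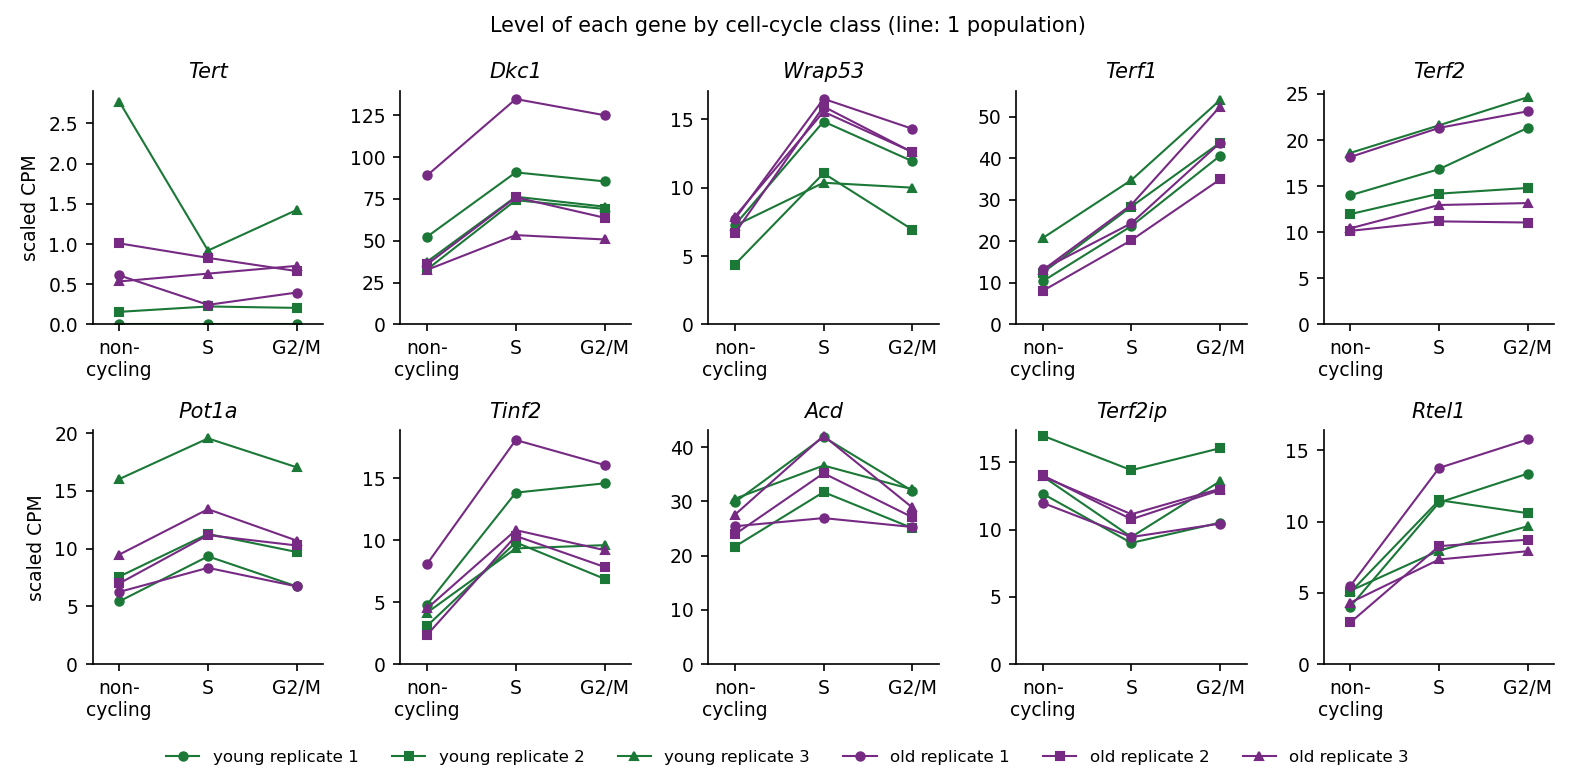
Scaled CPM of each gene in non-cycling, S and G2/M cells, 1 line per population, young in green and old in purple, each panel with its own axis from 0. Terf1 climbs to 34.9 to 54.0 scaled CPM in G2/M, Terf2ip dips in S in all 6 lines, and the Tert lines do not run in parallel.

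The step from non-cycling to cycling cells did not differ detectably by age. The difference between old and young in the S or G2/M fold change, a test added after seeing the data, called 0 of the 10 genes with edgeR or DESeq2. The lowest value was for Dkc1 in G2/M (edgeR unadjusted p = 0.0596). It called 0 of all 12321 genes (0%), of which 473 in S and 523 in G2/M had an unadjusted p under 0.05. The old minus young difference for Dkc1 in G2/M was -0.24 (SE 0.12). For Terf1 in G2/M it was 0.24 (SE 0.15, edgeR unadjusted p = 0.131).

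Cells entering myogenic differentiation were compared with the other non-cycling cells. Myog, the myogenin gene, marks this step, and non-cycling cells with 2 or more Myog UMIs were set against those with 0. The comparison used the 5 samples with at least 50 cells in each class, since old replicate 1 had only 32 Myog-positive cells. Terf2ip rose and Acd fell, 2 of the 9 genes tested, where 33.9% of all genes were called, 15.4% higher and 18.6% lower, so the count was no greater than the background. Leaving out 1 sample left 0 to 1 of these calls. The median log2 fold change was -0.38 over the 9 genes and -0.06 over all genes.

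Terf2ip was at 11.7, 16.4 and 13.1 scaled CPM in Myog-negative and 24.2, 19.6 and 17.8 scaled CPM in Myog-positive cells of the young samples. In old replicates 2 and 3 it went from 12.8 and 11.8 to 18.4 and 15.4 scaled CPM. It was higher in 5 of 5 populations, with a log2 fold change of 0.48 (SE 0.14, edgeR adjusted p = 0.0236). Without old replicate 2 or without old replicate 3 it was 0.48 and 0.53 and no longer passed the threshold (edgeR adjusted p = 0.0807 and 0.0632). Acd, by contrast, went from 28.8, 21.9 and 29.5 to 18.2, 18.6 and 17.8 scaled CPM in the young samples and from 24.5 and 28.2 to 17.4 and 25 scaled CPM in the old. It was lower in 5 of 5 populations, at -0.39 (SE 0.13, edgeR adjusted p = 0.0367). The Acd call was lost without any 1 of the 5 populations, with DESeq2, with unthinned counts and with 1 or more Myog UMIs as the limit, at values from -0.52 to -0.21 over all alternatives. In Myog-positive cells of young replicates 1 and 3, Terf2ip had only 20 and 10 UMIs, and Acd only 15 and 10.

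The other genes tested had estimates below 0 that did not pass the threshold. Terf1 was at -0.38 (SE 0.16, edgeR adjusted p = 0.0871), Wrap53 at -0.43 (SE 0.18, adjusted p = 0.0888) and Dkc1 at -0.32 (SE 0.14, adjusted p = 0.103). With unthinned counts Dkc1 was at -0.40 and passed it (edgeR adjusted p = 0.0131). Dkc1, Wrap53, Rtel1 and Terf2 were lower in 5 of 5 populations, although the Dkc1 ratios in old replicates 2 and 3 were -0.03 and -0.02. The Terf2 ratio in old replicate 3 was -0.0098. Some of these signs rest on few UMIs in Myog-positive cells. In young replicates 1 and 3 these were 2 and 2 for Rtel1, 5 and 3 for Wrap53, and 9 and 5 for Terf2. Rtel1 was at -0.45 (SE 0.23), Pot1a at -0.48 (SE 0.26), Terf2 at -0.20 (SE 0.16) and Tinf2 at -0.17 (SE 0.30). Young replicate 3, with 101 Myog-positive cells, had only 1 Pot1a UMI and no Tinf2 UMI in those cells. Tert was too sparse to be tested, with 68 UMIs in 16685 Myog-negative and 8 UMIs in 4646 Myog-positive cells.

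**Figure D5:**
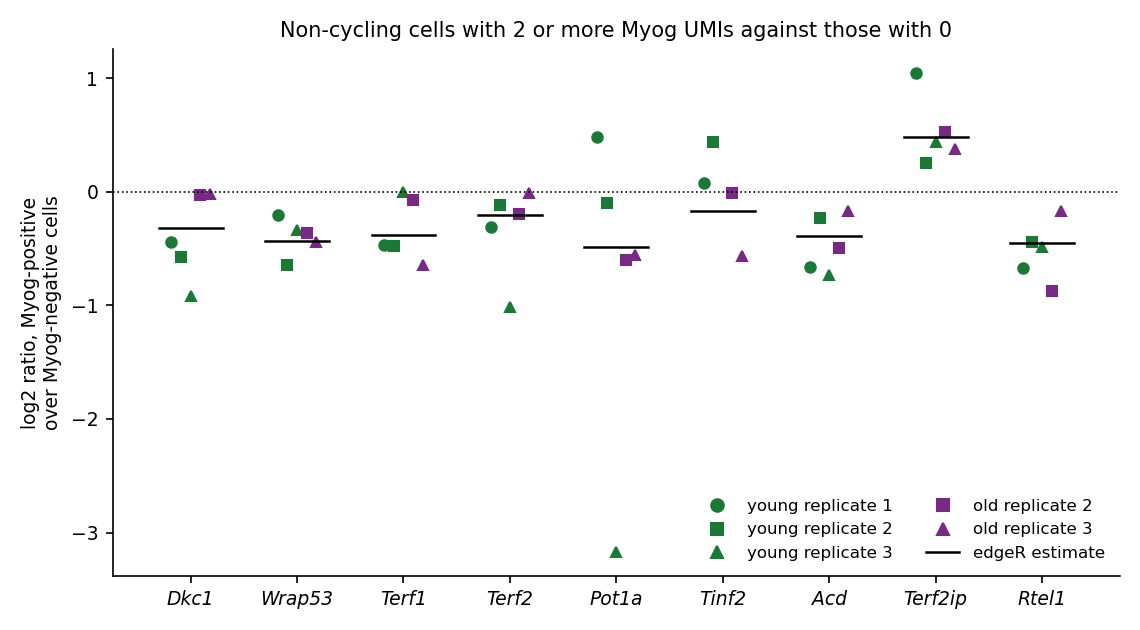
Log2 ratio of each gene between Myog-positive and Myog-negative non-cycling cells, 1 point per population (5 populations) and a line at the edgeR estimate. All 5 Terf2ip points lie above 0 and all 5 Acd points below; Tinf2 in young replicate 3 had no UMI in Myog-positive cells and is not drawn, and the lowest Pot1a point rests on 1 UMI.

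Partner genes of telomerase and telomere maintenance were counted in lists of known function. For old against young, where edgeR called 0.00689% of all genes, the calls were 0 of 15 tested genes of telomerase RNA and its biogenesis, 0 of 12 of the CST complex (which fills in the lagging strand at telomeres) and telomere replication, 0 of 15 telomere nucleases, helicases and tankyrases, 0 of 12 of telomere chromatin and 0 of 10 regulators of Tert transcription, counts near the background. DESeq2 also called 0 of them. Terc, the gene of the telomerase RNA itself, was not among the genes tested. In edgeR, Wrn, the Werner helicase, was the only one of these genes with an unadjusted p under 0.05, which 512 of all 14512 genes had (-0.53, SE 0.21, edgeR unadjusted p = 0.0429, adjusted p = 1.00).

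The same lists were counted in S cells, where 24.1% of all genes rose and 31.4% fell, with a median log2 fold change of -0.05. Of the 15 genes of telomerase RNA and its biogenesis, 11 rose and 1 fell, with a median of 0.37. Nhp2, which joins dyskerin in the particle, rose by 0.49 (SE 0.04), Nop58 by 0.73 (SE 0.06) and the assembly ATPase Ruvbl2 by 0.63 (SE 0.07). Of 8 genes of CST and telomere replication, 7 rose and 1 fell, with a median of 1.34, among them the primase subunit Prim2 (2.34, SE 0.10) and the nuclease and helicase Dna2 (3.03, SE 0.15). The subunits of CST itself ran lower, from -0.12 to 0.80, and the gene that fell was among them. Genes of the S and G2/M scoring sets were left out of these lists for S and G2/M cells, and kept for the Myog comparison.

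The remaining lists were counted in the same way. Of 14 telomere nucleases, helicases and tankyrases, 7 rose and 3 fell, and the break sensor genes Mre11a (1.26, SE 0.08), Rad50 (1.06, SE 0.06) and Nbn (1.04, SE 0.07) were among those that rose. Of 11 telomere chromatin genes, 7 rose and 0 fell, and those with the smallest p were Smchd1 (0.95, SE 0.05), Suv39h2 (1.93, SE 0.11) and the maintenance methyltransferase Dnmt1 (1.89, SE 0.10). Of 10 regulators of Tert transcription, 3 rose and 2 fell: E2f1 was higher by 1.60 (SE 0.10), and Mxd4, an antagonist of Myc, was at -1.08 (SE 0.09). In G2/M cells the counts of higher and lower genes in the 5 lists were 8 and 0 of 15, 6 and 0 of 8, 6 and 2 of 14, 7 and 0 of 11, and 4 and 3 of 10, against 22.9% higher and 29.6% lower over all genes.

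In Myog-positive cells more genes fell than rose in 4 of the 5 lists, as over all genes (18.6% lower, 15.4% higher). Genes of the scoring sets were kept here, so the genes tested in a list can differ from those in S cells. Of the 15 genes of telomerase RNA and its biogenesis, 0 rose and 4 fell, namely Ruvbl2 (-0.56, SE 0.13), Fbl (-0.31, SE 0.09), Nhp2 (-0.37, SE 0.10) and Naf1 (-0.77, SE 0.22). Of 10 regulators of Tert transcription 5 fell and 0 rose, with Myc, an activator of Tert, at -1.30 (SE 0.16, edgeR adjusted p = 0.000270). Of 11 telomere chromatin genes 2 rose and 5 fell, with the heterochromatin protein gene Cbx5 at 0.81 (SE 0.10). Of 14 nucleases, helicases and tankyrases 2 fell, Rad50 (-0.61, SE 0.13) and Wrn (-0.86, SE 0.20), and of 12 genes of CST and telomere replication 1 rose, Ten1 (0.45, SE 0.09), shares no greater than over all genes. The medians of the 5 lists lay between -0.37 and -0.08, against -0.06 over all genes.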

How the data were processed

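Cells of 6 MDSPC cultures were profiled with the 10x Genomics 3′ kit v3.1. The authors deposited raw UMI counts per gene and barcode, with no normalization, made with Cell Ranger 7.0.0 (young and old replicate 1, 21849 features) or 7.2.0 (the other 4 samples, 32285 features), per the file headers. The build was mm10, and the submitters' processing notes name Cell Ranger 7.2.0 and Seurat 5.134 for all samples. Whether intronic reads were counted, and in the same way under both versions, is not given in the sources used here, so this treatment could differ between young and old replicate 1 and the other 4 samples. The 10 genes are on both feature lists, while the telomerase RNA gene Terc was not analysed here. The lists shared 21485 identifiers, which held 98.5% to 99.9% of a sample's UMIs, and 1762 of these had another symbol.

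Kept barcodes had 1000 or more UMIs, 500 or more genes and under 15% mitochondrial UMIs. No doublet caller was run, and at 0.8% per 1000 barcodes 7.13% to 10.2% doublets would be expected. The replicate was the sample: counts were summed per sample, genes with few counts were dropped (filterByExpr), and a two-sided quasi-likelihood test with robust dispersions was run in edgeR 4.0.16 (R 4.3.3) after TMM scaling, with the feature list as a term. Adjustment was by Benjamini-Hochberg over all genes tested, with a threshold of 0.05. Phase (scanpy 1.11.5, 43 S and 54 G2/M genes), Myog classes and shares of cells used cells thinned to 5000 UMIs, which left out 1368 cells, and class fits had the sample as a block, since both classes come from the same sample. SEs were derived from the log2 fold change and its F statistic. Counting intervals cover counting error only. DESeq2 1.42.0 and other settings were alternatives. The scripts were tested on simulated data. All 10 genes, the lists and the markers were chosen with earlier results of these data known. All 10 genes were to be named whatever their values, and of each list at most the 4 with the smallest p in a comparison. Loci are from GENCODE M21 on GRCm38.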

Additional observations from a re-analysis of the deposited data

How the results depend on the processing

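For old against young, 168 alternative values kept their direction and their side of the threshold and 21 turned in direction, while 0 of the 10 genes was called under any alternative. Over all genes, DESeq2 called 219 (180 higher, 39 lower), the fit without the feature list term 0, the samples on the longer list alone 0, G2/M cells alone 2, and leaving out a sample 0 to 3 (3 without young replicate 3, 0 without young or old replicate 1), against 1. Of the genes that turned, Dkc1, Tinf2 and Terf2ip had reported values near 0 (-0.04, 0.01 and -0.05), while Tert (1.13), Pot1a (-0.34), Rtel1 (-0.23) and Terf1 (-0.19) turned only when samples were left out. Dkc1 was at 0.11 without the list term, 0.22 in non-cycling and 0.046 in S cells alone. On the longer list alone, which leaves out 2 samples, Tert was at -0.073 and Tinf2 at -0.26. The fits without young or old replicate 1 rest on these same samples, as the list term takes up the lone shorter-list sample. Their age estimates are therefore not separate from that fit, although each was counted above. Terf2ip was at 0.069 minus the median of its chromosome. Without 1 sample, Tert ran from -0.073 to 3.04, Tinf2 from -0.26 to 0.27, Terf2ip from -0.16 to 0.051, Terf1 from -0.55 to 0.15, Pot1a from -0.57 to 0.032, Dkc1 from -0.44 to 0.14 and Rtel1 from -0.69 to 0.039. The cause was not tested. The labels do not say whether the replicate numbers pair the cultures. Deviations from the group mean correlated at 0.378, 0.224 and -0.0814 between same-numbered cultures. Between differently numbered ones the correlations ran from -0.408 (young replicate 2, old replicate 1) to 0.276 (young replicate 2, old replicate 3). Young and old replicate 1, at 0.378, also shared the shorter feature list. With the replicate block edgeR called 1 gene and 0 of the 10, and Tinf2 was at -0.0030. Genes without overlap in the share of cells numbered 839, 5593 on the longer list alone and 1491 to 2891 without 1 sample, since fewer samples overlap less by construction. The Wrap53 share was higher in the old by 2.84 points without thinning, against 1.37.

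In the class comparisons the sample block removes the differences between cultures. Without this replicate block, edgeR called 955 genes and 5 of the 10 in S, 713 and 4 in G2/M, 123 and 0 in G2/M against S, and 479 and 0 in the Myog comparison. The genes tested numbered 12321 in the S and G2/M comparisons and 11218 in the Myog comparison. Leaving out 1 sample left 3 to 5 of the 10 in G2/M against S, an alternative set added after seeing the data. The fit reported above called 5 of the 10 there and 19.2% of all genes. In the Myog comparison, leaving out 1 sample left 0 to 1 of the 9 and 2458 to 3601 genes (2458 without old replicate 3). DESeq2 and the limit of 1 or more Myog UMIs each left 1 of the 9, where the reported fit called 2 of the 9 and 33.9% of all genes. Tinf2 there ran from -0.41 to 0.0085. Results for Tert rest on few counts, at 1 to 282 UMIs per sample.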
